A study of Rattus norvegicus with 6 samples.

Results

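Genes of intestinal lipid absorption were followed in the colons of 6 rats, the S.LEW congenic animals C1, C2 and C3 and the S animals S1 to S3, 3 per strain. The 10 genes were chosen by name for fatty acid binding and lipoprotein assembly in enterocytes, Fabp1, Fabp2, Fabp5, Fabp6, Apoa1, Apoa4, Apob, Mttp, Mogat2 and Dgat1, out of 15168 genes named on the array, and 11 of its 30367 probes read them. The S rat is the Dahl salt-sensitive strain, inbred and hypertensive, and in the congenic strain a small stretch around Rffl on chromosome 10 comes from the Lewis rat. All 6 rats had been given azoxymethane (AOM), a colon carcinogen, at 15 mg per kg in 2 injections that began at 6 weeks of age, and their colons were taken at 30 weeks. No untreated rats were measured, so every value belongs to AOM-treated colon. The sample labels call the colons tumor-induced, and the study reported more colon tumors in the congenic strain. Neither the labels nor the methods say whether tumor tissue was in the RNA. One single-color Agilent array was run per rat, and the values are log2 signals from the deposited normalized table. Precision is limited by having 3 arrays per strain.

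Enterocytes take up fatty acids and monoacylglycerol from digested fat and carry the fatty acids through the cytosol on fatty acid binding proteins. The lipids are joined again into triacylglycerol at the endoplasmic reticulum, where Mogat2 and Dgat1 act, and Mttp loads the triacylglycerol onto Apob to make chylomicrons, which also carry Apoa1 and Apoa4. This work is done mainly in the small intestine. The colon absorbs little dietary fat, and its epithelium is known for the uptake of short-chain fatty acids, salt and water.

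The arrays differed within the S strain before any gene is considered. Across probes the array of S2 correlated with the congenic arrays at 0.967 to 0.976 but with S1 at 0.900 and with S3 at 0.937, while S1 and S3 correlated at 0.980. The file headers give the same scan time for C1 and the 3 S arrays and another for C2 and C3, so that a comparison within the first scan has C1 as its only congenic rat. Between 73.8% (C2) and 87.6% (S3) of spots were well above background, the scanner software's call that a spot stands clear of its surroundings. Before normalization the arrays of S1 and S3 were also the brightest, with median intensities of 594 and 445. The other arrays had medians from 214 (C2) to 291 (C3). Hoxb13, a homeobox gene of the hindmost gut that marks the distal colon, separated the S rats from each other. Its probe, read from the scanner files after quantile normalization because the deposited table does not list it, gave a log2 signal of 12.54 in S2 and 12.04 in S3. On the arrays of S1, C1, C2 and C3 it was not well above background.

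Fabp1 and Fabp2, the liver and intestinal fatty acid binding proteins, were called higher in the congenic rats, and no other of the 10 genes was called in either direction. A call here is an unadjusted limma p under 0.05 with at least a 2-fold difference, the cut-offs of the study. Of the 9 genes with a value in the deposited table, 2 were called higher and 0 lower, where 3.23% of all 23997 probes were called higher and 2.34% lower. Counted by the brightest probe of each gene, 471 of 12418 genes were called higher and 325 lower. After Benjamini-Hochberg adjustment over all probes limma called 0 of the 9 genes and 0.0% of the probes at an adjusted p under 0.05, against 3115 probes at an unadjusted p under 0.05. The methods' t-test also called 0 probes after adjustment and 2594 without it. The adjusted count depended on single rats, with 5553 probes without S2, 41 without S1 and 8549 with array weights, 1 with 75th percentile scaling and 0 in the other alternatives run. In 3 of the 9 genes every congenic rat lay above every S rat, and in 0 of them below, where this held for 12.4% and 5.33% of all probes. The median log2 fold change of the 9 genes was 0.51, or 0.21 without C3 and 0.34 with the scan as a block, beside 0.03 over the brightest probe of each of 12418 genes.

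**Figure D1:**
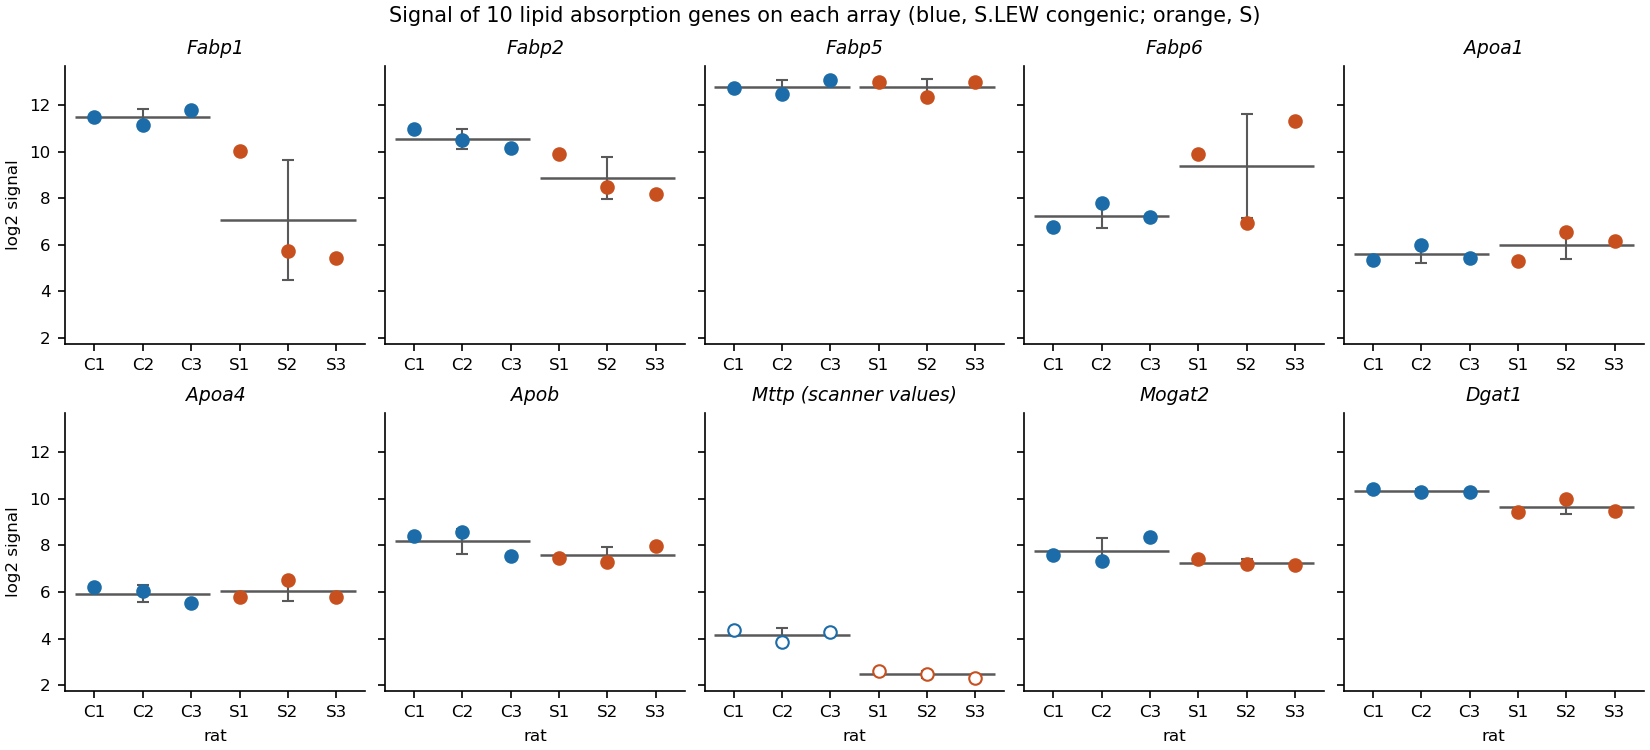
The log2 signal of each of the 10 genes is plotted for each rat, with C1 to C3 in blue and S1 to S3 in orange, horizontal lines for the strain means and bars for 1 SD. Open points mark arrays on which the probe was not well above background, which holds for all 6 values of Mttp, and the S points of Fabp1 spread from 5.43 to 10.03.

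Fabp1 binds long-chain fatty acids and other lipids in enterocytes and hepatocytes. Its log2 signals were 11.51, 11.13 and 11.80 in C1 to C3, against 10.03 in S1, 5.76 in S2 and 5.43 in S3. The congenic rats lay close together, while S1 stood far above the other S rats and 1.1 below the lowest congenic rat. The means were 11.48 ± 0.33 (SD, n = 3) and 7.07 ± 2.57 (SD, n = 3), a log2 fold change of 4.41 (standard error, SE, 1.19, adjusted p = 0.283 from limma), or 21.2-fold. The 95% confidence interval ran from 1.53 to 7.28. An exact two-sided permutation test gave p = 0.10, the lowest value possible for 3 rats against 3. Without S1 the log2 fold change was 5.89, without S2 3.75 and without S3 3.58, and the call held in each of these fits. The limma adjusted p ranged from 0.0102 with array weights, and 0.0165 without S1, to 0.917 within the first scan. With the scan as a block, or within the first scan, it was 4.44 and no longer called, and the congenic value there is that of C1.

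The S rats that were low for Fabp1 were those with signal for Hoxb13. Hoxd13, another gene of the posterior Hox groups, had a log2 signal of 6.55 in C1, 6.55 in C2, 6.75 in C3, 5.05 in S1, 11.43 in S2 and 9.42 in S3, so that it too was high in S2 and S3. Both genes belong to a list of 16 markers of colonocytes and colon position, 14 of them with a deposited value, of which the congenic strain had 4 called higher and 1 lower. With single rats left out the higher count ran from 2 without C1 to 7 without C3. The lower count ran from 0 without S3 to 2 without C1, C2 or S1. With the scan as a block 6 were called higher and 0 lower. The summed signal of that list was 202500, 154200 and 156500 in C1 to C3 and 89520, 70220 and 69800 in S1 to S3. This sum leans on the brightest genes. Car1, a carbonic anhydrase and the brightest gene of that list in the congenic rats, had log2 signals of 15.81, 14.98 and 15.55 in C1 to C3 and 13.73, 11.49 and 10.89 in S1 to S3. The mean log2 signal of the 14 genes was 12.29, 12.04 and 11.84 in C1 to C3 and 11.29, 11.60 and 11.47 in S1 to S3. The congenic rats were higher by both measures, but S1 was the highest S rat by the sum and the lowest by the mean. Hoxd13, low in S1, is part of that mean. The part of colon position in the differences of Fabp1 and Fabp2 was not tested, and in whole colon RNA fewer cells of a type and less RNA per cell cannot be told apart.

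Fabp2, which carries fatty acids in the enterocytes of the small intestine, was also higher in every congenic rat than in any S rat, by smaller steps, and the S rats kept their order. The log2 signals were 10.99, 10.51 and 10.14 in C1 to C3, against 9.89 in S1, 8.49 in S2 and 8.21 in S3. The lowest congenic rat, C3, exceeded the highest S rat, S1, by 0.25, less than the spread within either strain. The means were 10.55 ± 0.43 (SD, n = 3) and 8.86 ± 0.90 (SD, n = 3), which gave a log2 fold change of 1.69 (SE 0.48, adjusted p = 0.300 from limma), or 3.22-fold, with a 95% confidence interval of 0.53 to 2.84. The exact two-sided permutation test again gave p = 0.10, and the limma adjusted p ranged from 0.0111 with array weights to 0.917 within the first scan. The call held with each rat left out in turn, with log2 fold changes from 1.36 without S3 to 2.20 without S1, and also with the scan as a block, where it was 2.13 and rests on the single congenic rat C1.

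The stretches of DNA before the Fabp1 and Fabp2 genes are shown because these genes were called together, and that of Fabp6 because its order of the rats was another. RefSeq promoter sequences of the GRCr8 assembly were in hand for 4 of the 10 genes, and each stretch holds the 250 bases before the listed start, read 5′ to 3′ on the strand of the gene. They lie at chr4:104749090-104749339 (+ strand) for Fabp1, chr2:213724379-213724628 (+ strand) for Fabp2 and chr10:28569728-28569977 (- strand) for Fabp6. The stretch of Fabp1 lies inside the span of the gene as annotated, chr4:104744302-104753119, and the others lie next to the first base of the gene. Capitals mark matches to 4 motifs on either strand, chosen after the sequences had been read and not overlapping here: TATAAA, the letters of the TATA box, GATAAG, letters that GATA factors bind, GTTAAT, a core of the sites of HNF1, and AGNNCANAGNNCA, a direct repeat of the kind that nuclear receptors bind.
Fabp1: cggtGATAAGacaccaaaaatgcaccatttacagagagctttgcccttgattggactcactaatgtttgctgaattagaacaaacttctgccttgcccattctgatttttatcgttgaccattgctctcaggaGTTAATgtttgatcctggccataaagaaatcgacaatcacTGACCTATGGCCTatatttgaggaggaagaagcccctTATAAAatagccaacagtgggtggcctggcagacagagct
Fabp2: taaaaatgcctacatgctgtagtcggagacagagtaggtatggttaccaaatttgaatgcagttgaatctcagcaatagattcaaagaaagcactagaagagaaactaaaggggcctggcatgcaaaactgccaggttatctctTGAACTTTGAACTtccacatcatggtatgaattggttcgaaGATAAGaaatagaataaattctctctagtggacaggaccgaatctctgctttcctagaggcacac
Fabp6: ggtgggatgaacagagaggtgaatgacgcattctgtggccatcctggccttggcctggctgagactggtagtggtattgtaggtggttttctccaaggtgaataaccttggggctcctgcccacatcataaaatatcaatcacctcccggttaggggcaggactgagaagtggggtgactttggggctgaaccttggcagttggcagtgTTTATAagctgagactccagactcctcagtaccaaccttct
The direct repeat was found on the opposite strand in Fabp1, 77 to 65 bases before the start, and in Fabp2, 106 to 94 bases before it, and GATAAG was found in both genes. Fabp1 also held GTTAAT and TATAAA, and Fabp6 held TATAAA alone, on the opposite strand. The fourth gene, Apoa4, held none of the 4 motifs in its stretch. Of 33469 promoters of this length, 12.9% held TATAAA, 6.18% GATAAG, 6.45% GTTAAT and 2.23% the direct repeat. A match describes the letters and is no evidence that a factor binds there.

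Fabp6, the ileal bile acid binding protein, had the opposite sign, and the size of its difference depended on single S rats. It had log2 signals of 6.77, 7.79 and 7.18 in C1 to C3, against 9.91 in S1, 6.95 in S2 and 11.32 in S3. S1 and S3 stood above all congenic rats, and S2 lay among them, so the strains overlapped. The log2 fold change was -2.15 (SE 1.06, adjusted p = 0.419 from limma), with a 95% confidence interval of -4.69 to 0.40 and an exact two-sided permutation p = 0.30. Without S2 it was -3.37 and called lower (adjusted p = 0.0147 from limma, in a range of 0.0069 to 0.917 over the alternative fits), without S3 it was -1.18, and against S2 alone it was 0.30. Fabp6 is the one gene of the 10 on chromosome 10, 39.7 Mb from Rffl in GRCr8.

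The S rats that were high for Fabp6 were also those with high signals of most immune cell markers reported. Of 12 lymphoid markers 5 had a deposited value, and these were called lower in the congenic rats, of which Cd3g was called in 4 of the 6 fits that leave out 1 rat and the other 4 genes only in the fit without S2, and 0 of the 5 were called with the methods' t-test, with the scan as a block, within the first scan or against S2 alone. Their summed signal was 1742 in C1, 1179 in C2, 1051 in C3, 25290 in S1, 1582 in S2 and 22430 in S3. Of the defining markers outside the table, Cd3e, Cd79b and Cr2 were well above background in S1 and S3 only. The 9 macrophage markers summed to 7925, 10160 and 11870 in C1 to C3 and 69170, 7173 and 51120 in S1 to S3. This sum leans on the brightest gene, Lyz2, with log2 signals of 11.68, 12.00 and 12.19 in C1 to C3 and 15.66, 11.62 and 15.20 in S1 to S3. The mean log2 signal of the 9 genes was 8.20, 8.77 and 8.86 in C1 to C3 and 9.46, 8.04 and 9.45 in S1 to S3. By that mean S1 and S3 were still the highest rats, but by less. Of the 9 genes 2 were called up and 1 down in the congenic strain, or 2 and 6 without S2. The genes called up, Cd163 and Mrc1, ran against the summed signal, with Cd163 at 6.67 to 7.98 in the congenic rats, 4.89 in S1 and 5.69 in S3. In the fits that leave out a rat other than S2, 0 of the 9 macrophage markers were called down. With the scan as a block 0 were called in either direction. The part of these cells in the Fabp6 signal was not tested.

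**Figure D2:**
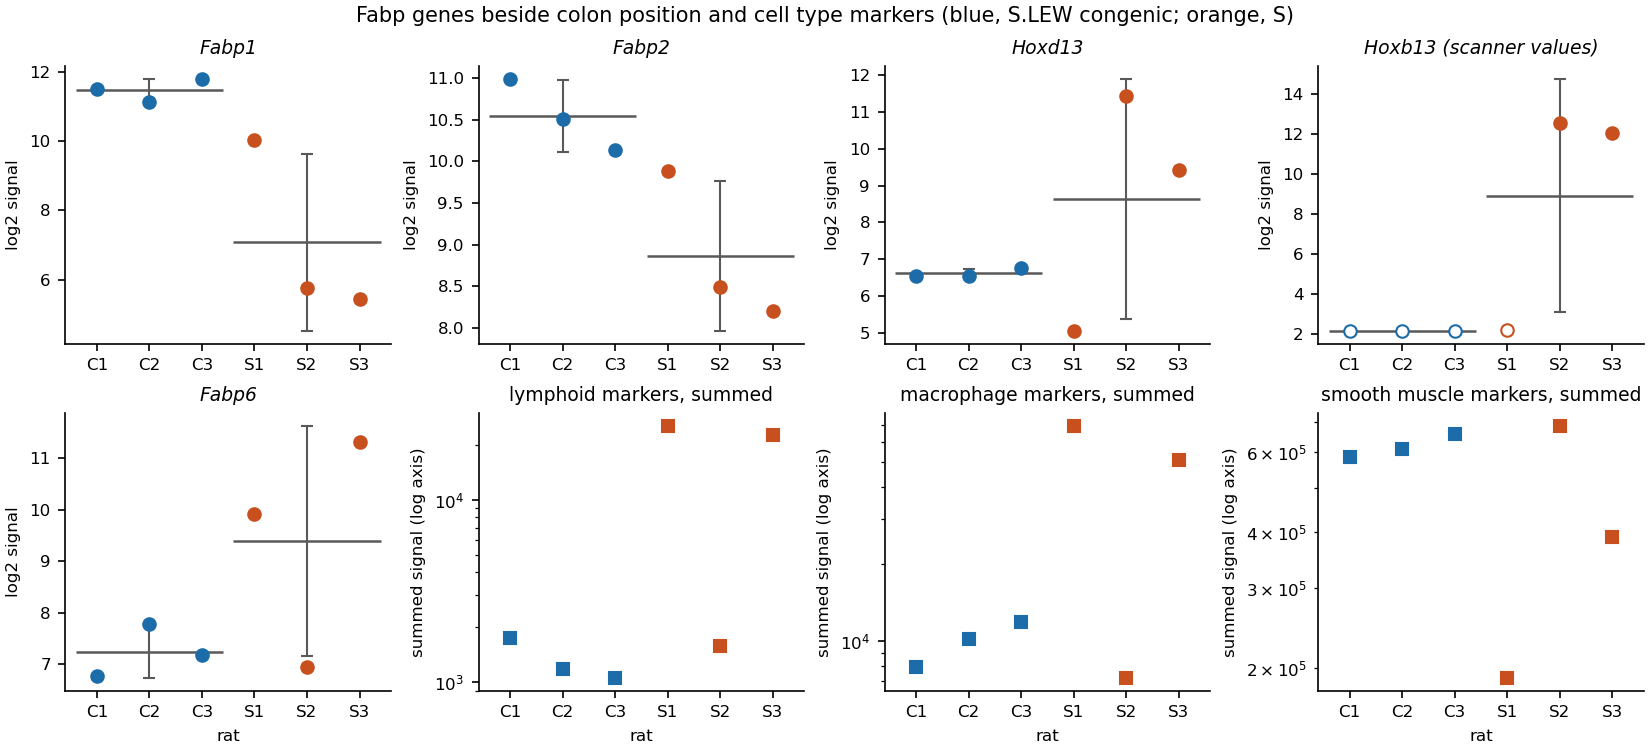
Log2 signals of Fabp1, Fabp2, Hoxd13, Hoxb13 and Fabp6 and the summed signals of 3 marker lists, on a log axis, are plotted for each rat, with strain means and bars of 1 SD for the single genes and open points where the signal fell short of well above background. S2 and S3 are high for Hoxb13 and Hoxd13 and low for Fabp1, whereas S1 and S3 are high for Fabp6 and for the lymphoid and macrophage sums.

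Fabp5, the epidermal fatty acid binding protein, which many epithelia express, did not differ between the strains beyond the spread of the rats. It ranged from 12.47 to 13.10 in the congenic rats and from 12.36 to 12.98 in the S rats, with a log2 fold change of -0.0012 (SE 0.27, 95% confidence interval -0.64 to 0.64). The sign of so small a value turned under the 75th percentile scaling, where it was 0.051, and in 4 of the 6 fits that leave out 1 rat.

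Among the enzymes that remake triacylglycerol, Dgat1 separated the strains by less than 2-fold. Dgat1 joins the last fatty acid to diacylglycerol, and its log2 signals were 10.41, 10.31 and 10.31 in C1 to C3, against 9.44 in S1, 9.98 in S2 and 9.49 in S3. Every congenic rat lay above every S rat, by 0.32 or more, and S2 was the closest. The log2 fold change was 0.71 (SE 0.21, adjusted p = 0.310 from limma), or 1.63-fold, with a 95% confidence interval of 0.20 to 1.21, and the exact two-sided permutation test gave p = 0.10. Leaving out single rats moved it between 0.61 and 0.88, and it was 0.36 against S2 alone. For Dgat1 the limma adjusted p ran from 0.0057 with array weights, and 0.0168 without S2, to 0.917 within the first scan. Mogat2, which adds a fatty acid to monoacylglycerol, had log2 signals of 7.61 in C1, 7.35 in C2 and 8.38 in C3, against 7.42 in S1, 7.22 in S2 and 7.16 in S3. S1 lay above C2, and C3 stood apart from the other rats. The log2 fold change of the brighter Mogat2 probe was 0.51 (SE 0.30, adjusted p = 0.465 from limma) and fell to 0.21 without C3. A dimmer Mogat2 probe was well above background on 1 of 3 congenic and 3 of 3 S arrays, and no fold is given for it.

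The structural proteins of chylomicrons did not separate the strains. Apob, the backbone of the particle, had log2 signals of 8.42 in C1, 8.56 in C2 and 7.57 in C3, against 7.44 in S1, 7.30 in S2 and 7.96 in S3. S3 exceeded C3, and the log2 fold change of 0.61 (SE 0.33, adjusted p = 0.445 from limma) had a 95% confidence interval of -0.18 to 1.41 and was 0.92 without C3 and 0.39 with array weights. Apoa1, the main protein of high density lipoprotein, ranged from 5.35 to 6.00 in the congenic rats and from 5.32 to 6.57 in the S rats, with a log2 fold change of -0.42 (SE 0.37) that was -0.14 without S2 and -0.77 without S1. Apoa4, a chylomicron protein of the small intestine, ranged from 5.53 to 6.22 and from 5.78 to 6.51, with a log2 fold change of -0.10 (SE 0.29) that turned to 0.14 without S2. Both genes were dim, with Apoa1 at 6.00 in C2 and 5.42 in C3 and Apoa4 at 6.03 and 5.53. The lowest signal well above background was 5.62 in C2 and 5.01 in C3, so a lower level had little room to show there. The Apoa1 and Apoa4 genes lie near each other at chr8:55423945-55425729 and chr8:55435779-55438160 in GRCr8, and in both of them S2 was the highest of the 6 rats.

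Mttp, the microsomal triglyceride transfer protein without which Apob is not lipidated, was not well above background on any of the 6 arrays. Its probe had no value in the deposited table, and in the scanner files it gave 4.38 in C1, 3.84 in C2 and 4.28 in C3, against 2.61 in S1, 2.49 in S2 and 2.30 in S3 after quantile normalization. At these signals no fold is given.

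**Figure D3:**
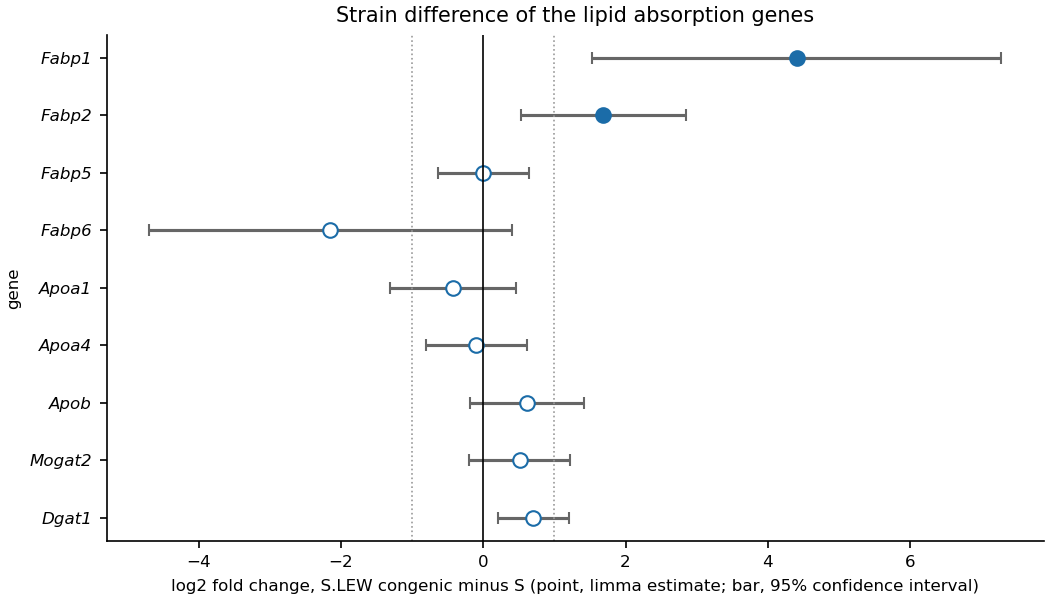
The log2 fold change, congenic minus S, is shown as a point for each of the 9 genes in the deposited table, with bars for the 95% confidence interval from limma, filled points for called genes and dotted lines at a 2-fold difference. The intervals of Fabp1, Fabp2 and Dgat1 lie above 0, and that of Fabp6 is the broadest of those that span 0 (-4.69 to 0.40).

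**Figure D4:**
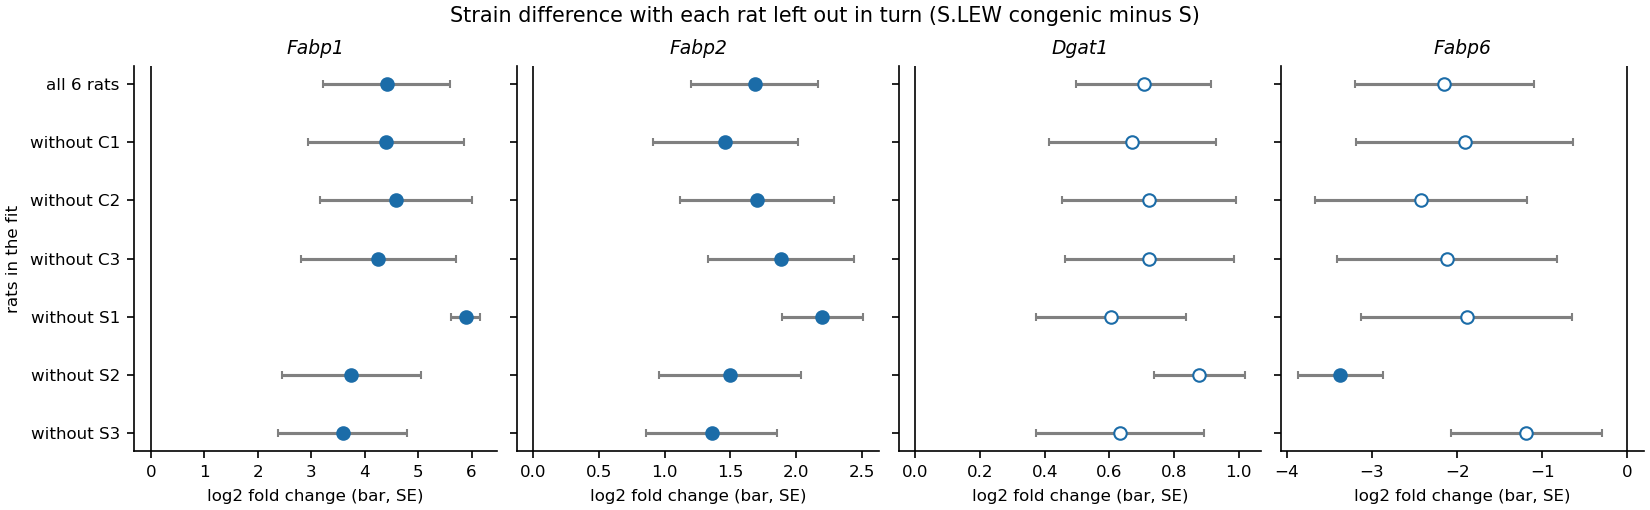
The log2 fold changes of Fabp1, Fabp2, Dgat1 and Fabp6 are shown for all 6 rats and for the fits that leave out 1 rat, with bars of 1 standard error and filled points for called values. Fabp1 and Fabp2 are filled in every fit, and Fabp6 only without S2, at -3.37.

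Genes with profiles most like those of the called members were taken from the 1998 genes whose brightest probe ranged over at least 2 on the log2 scale. For Fabp1 these were Hsd3b2 (Pearson r = 0.998 over the 6 arrays), Cyp4f1 (0.997), Tff2 (0.997), Fut9 (0.994) and Acot5 (0.993). Hsd3b2 for example read 11.75, 11.25 and 12.03 in C1 to C3, 10.76 in S1, 6.72 in S2 and 6.35 in S3. Fut9 and Tff2 were well above background on 4 arrays and Acot5 on 3. For Fabp2 they were Ghrl (0.985), Cldn15 (0.984), Mcemp1 (0.982), Hsd3b5 (0.980) and Tubal3 (0.979), with Mcemp1 and Hsd3b5 well above background on 4 arrays.

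Genes around the members in the pathway were counted list by list, beside 471 of 12418 genes called higher and 325 lower over all genes. In the list of fatty acid uptake and activation, 2 of 12 tested genes were called higher and 0 lower. Slc27a6 and Slc27a4, fatty acid transport proteins that also activate fatty acids, had log2 fold changes of 1.57 (SE 0.41) and 1.24 (SE 0.22), and both were called with each rat left out in turn. Slc27a4 read 12.08 in C1, 11.72 in C2 and 11.57 in C3, against 10.66 in S1, 10.69 in S2 and 10.29 in S3, so that S1, S2 and S3 were alike for it. Of 14 tested genes of triacylglycerol synthesis, 1 was called higher and 0 lower. That gene, Dgat2, the other enzyme of the last step, read 10.22, 10.01 and 9.47 in C1 to C3, against 9.53 in S1, 7.57 in S2 and 8.56 in S3. Its log2 fold change of 1.35 (SE 0.50) was no longer called without C1 (1.19), C2 (1.29), S2 (0.86) or S3 (1.35). Nor was Dgat2 called with the scan as a block (1.67), and the methods' t-test called 0 of the 14 genes.

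Of 15 tested genes of lipoprotein assembly and secretion, 0 were called higher and 1 lower. Apoc1, an apolipoprotein that macrophages also make, had log2 signals of 5.28, 4.62 and 5.24 in C1 to C3, well above background on 1 of 3 arrays, against 7.95 in S1, 5.52 in S2 and 7.53 in S3. Its log2 fold change of -1.95 (SE 0.64) was -2.69 without S2 and was no longer called without C2 (-1.74), S1 (-1.48) or S3 (-1.68), values that the dim congenic arrays make uncertain. S1 and S3 were thus the high rats for Apoc1, as they were for Fabp6 and for the macrophage sum. Of 7 tested genes of sterol transport and esterification, 0 were called higher and 1 lower. With all 6 arrays required to be well above background, 0 of 5 were called. The median log2 fold change was then 0.014, against -0.43 for the 7 genes. The called gene Abcg5, a subunit of the pump that returns plant sterols to the gut lumen, had a deposited value only through the S arrays. On none of the congenic arrays was it well above background. It was at least 1.64-fold lower there, a bound that sets each congenic array at the lowest signal among its probes well above background, or at its own signal if higher, and it read 5.68 in S1, 4.31 in S2 and 7.29 in S3. The bound rests on S3, without which it was 0.96, and the call was lost without C1, C2, S1 or S3.

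Of 11 tested genes of lipid droplets and triacylglycerol breakdown, 1 was called higher and 0 lower. Mgll, the lipase of monoacylglycerol, had a log2 fold change of 1.18 (SE 0.32), which was 0.93 and not called without S3. Among 8 other fatty acid and retinol binding proteins 0 were called. Dbi, the acyl-CoA binding protein and the brightest of them by the mean over the rats, had a log2 fold change of 0.74 (SE 0.20), with every congenic rat at 12.74 to 12.77 and the S rats at 11.84 to 12.33. Of 3 tested genes of ileal bile acid handling, 1 was called higher and 0 lower. Nr1h4, the bile acid receptor FXR, had a log2 fold change of 1.22 (SE 0.24), called with each rat left out in turn, while the bile acid uptake transporter Slc10a2 was well above background on no array. The estimate for Fabp6 had the other sign, but Fabp6 was not called and its confidence interval spanned 0.

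Among 17 tested transcription factors of enterocyte lipid genes, 3 were called higher and 0 lower. Pparg, a nuclear receptor of fatty acids, had a log2 fold change of 1.63 (SE 0.33) and log2 signals of 11.32, 11.18 and 11.30 in C1 to C3, 10.31 in S1, 9.55 in S2 and 9.06 in S3. It was called with each rat left out in turn. Ppara, its relative that is known to drive Fabp1 in the liver, had 1.18 (SE 0.30) and was no longer called without S3 (0.99). The coactivator Ppargc1b had 1.05 (SE 0.31) and was no longer called without C3 (0.93), S1 (0.95) or S3 (0.84). Nor was Ppargc1b called with the scan as a block (1.04), where 2 of the 17 genes were called higher. With the normexp background correction of the scanner values 1 was called higher.

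**Figure D5:**
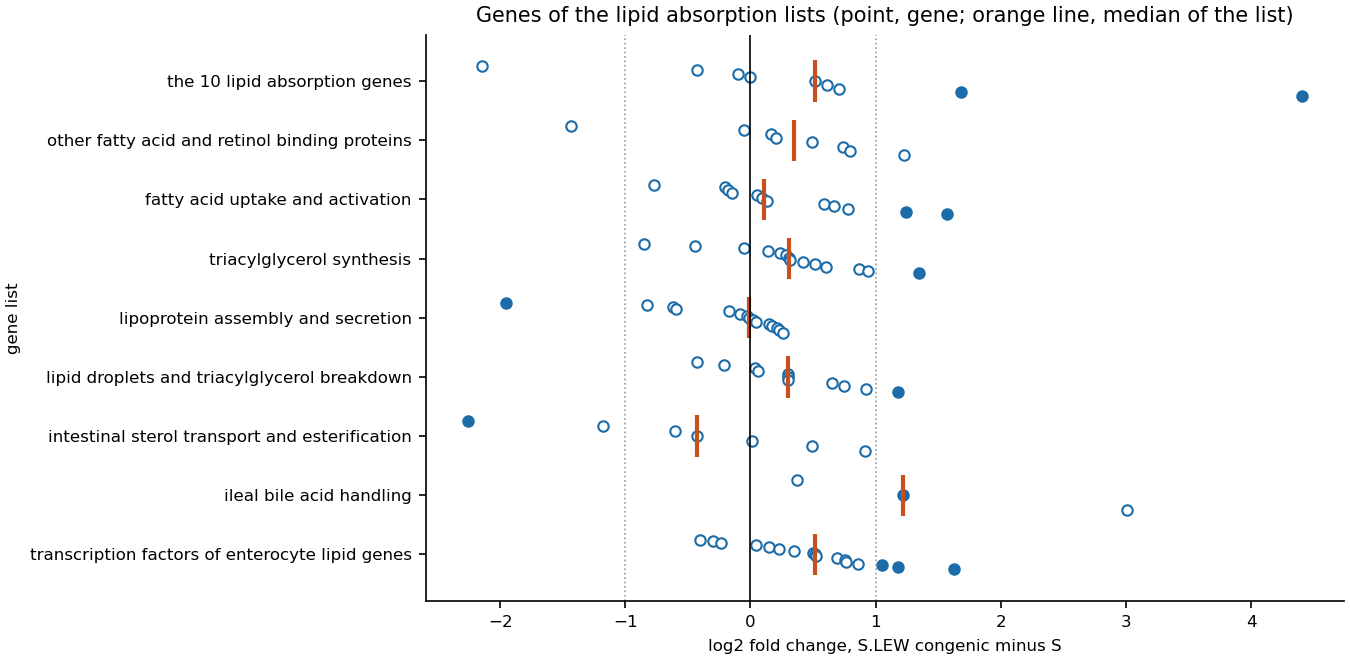
Each point is the log2 fold change, congenic minus S, of the brightest probe of 1 gene, arranged by list, with filled points for called genes, an orange line at the median of the list and dotted lines at a 2-fold difference. The medians range from -0.43 for sterol transport to 1.22 for ileal bile acid handling and depend on single rats, that of sterol transport being -0.95 without S2 and -0.20 without S1, and most called genes lie to the right. Abcg5 is drawn at its value in the table, although only the bound can be given for it.

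Markers of small intestinal enterocytes differed in sign. Of 18 listed, 11 had a deposited value, with 1 called higher and 2 lower, and their summed signal was 3462, 3530 and 3637 in C1 to C3 and 2925, 3553 and 3570 in S1 to S3. The lower count was 1 without C1, C3 or S3, and 3 without C2 or S1. Enpep, a brush border peptidase, was the gene called higher, with a log2 fold change of 1.75 (SE 0.39), every congenic rat above every S rat and a call with each rat left out in turn. Slc15a1, the peptide transporter, was well above background on no array of the congenic strain, where it was at least 2.19-fold lower, or 1.39-fold without S3. It was called lower, but had a deposited value only through the S arrays. Dpp4, the other gene called lower, had a log2 fold change of -1.35 (SE 0.44), with every congenic rat below every S rat. It was called in 2 of the 6 fits that leave out 1 rat. With all 6 arrays required to be well above background, 1 of 8 markers was called higher and 1 lower. Of the markers outside the table, Slc6a19 and Tmprss15 were well above background on none of the arrays, and Slc2a2, Slc2a5 and Cubn in S1 and S3 only, although Slc2a5 read 4.52 in S3 and 4.60 in C2 and Cubn 3.97 in S3 and 4.11 in C1. Hepatocytes also express Fabp1 and the apolipoproteins, and of their defining markers Alb, Ttr, Apoh, Fgb, Fga, Tat and Cyp2e1 were not well above background on any array, while Fgg (4.07) and Cps1 (3.70) were in S3 alone. With 3 of 12 hepatocyte markers in the table, 0 were called, and they summed to 2060, 2805 and 2518 in C1 to C3 and 2344, 3873 and 2485 in S1 to S3.

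The other marker lists bear on what else the colon samples held. Of 8 adipocyte markers 3 were called higher and 0 lower, or 0 in either direction with the scan as a block or within the first scan, and they summed to 2886, 3670 and 5796 in C1 to C3 and 1662, 3161 and 2203 in S1 to S3. The 8 smooth muscle markers had 1 called higher and 0 lower, or 6 higher without S2 and 0 in each other fit that leaves out 1 rat, with sums of 585700, 608200 and 658600 in C1 to C3, 189900 in S1, 685500 in S2 and 389400 in S3. Of 8 skeletal muscle markers 3 were called lower and 0 higher, or 4 and 1 without S2. Their sums were 20540, 19730 and 24570 in C1 to C3 and 10420, 41840 and 19450 in S1 to S3. Of 7 pancreatic acinar markers 1 was called lower and 0 higher, and of 5 squamous epithelium markers 0 were called. Of the genes called lower, Myh1, Mybpc1 and Cela1 were well above background on no congenic array. They had a deposited value only through the S arrays. With all 6 arrays required to be well above background, 1 of 5 skeletal muscle and 0 of 4 acinar markers were called lower. The part of these cells in the differences of the lipid absorption genes was not tested.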

How the data were processed

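The authors deposited scanner files with a background-corrected intensity for each spot (Agilent Feature Extraction 11.0.1.1) and a table of normalized log2 values for 23997 probes, which the methods describe as quantile-normalized and detected in at least 3 of 6 samples. On the log2 scale this table correlated with the scanner intensities of the same array at 0.9986 to 0.9998, with medians of 8.55 to 8.57, and at the members' probes it differed by at most 0.0069 from a quantile normalization of the scanner files done here. Accessions were matched to RefSeq genes of GRCr8, which named 18005 of 30367 probes, and a gene is represented by its brightest probe. Each probe was fitted for strain by lmFit and eBayes of limma 3.58.1 under R 4.3.3, without covariates, and p values were adjusted by Benjamini-Hochberg over all probes. Groups came from the sample labels. Exact permutation tests are two-sided.

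Named genes are all 10 members, up to 3 called genes of each of 8 pathway lists (or else the brightest gene), and the 5 genes most like Fabp1 and Fabp2; marker genes, Hoxd13 and Hoxb13 among them, and others outside this rule were chosen after their values were seen. The members and lists were chosen with earlier results of these data known. Alternatives were the scanner values, 75th percentile scaling, normexp background correction, other filters on dim probes, array weights, the methods' t-test, the scan or the replicate number as a block, and leaving out each rat. S2 as the only S rat was added after seeing the data. One lymphoid marker was taken off its list after the fit, for a reason other than its value, and is not reported here. Promoters come from RefSeq (GRCr8). Plots were drawn with matplotlib 3.10.9.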

Additional observations from a re-analysis of the deposited data

How the results depend on the processing

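Fabp2 kept its call under every alternative run, Fabp1 under all but the scan as a block and the comparison within the first scan (4.44 in each), which left 1 of the members called higher. Both of these rest on C1 for the congenic strain, and S2 as the only S rat is also a single sample, so a kept call there carries no weight. With the replicate number as a block Fabp1 and Fabp2 were still called. With each rat left out in turn Fabp1 ranged from 3.58 to 5.89, Fabp2 from 1.36 to 2.20, Fabp5 from -0.21 to 0.15, Fabp6 from -3.37 to -1.18, Apoa1 from -0.77 to -0.14, Apob from 0.43 to 0.92 and Apoa4 from -0.25 to 0.14, with 2 members called higher and 0 to 1 lower. Against S2 as the only S rat Fabp5 was 0.41, Fabp6 0.30, Apoa1 -0.98 and Apoa4 -0.58. Fabp5 was 0.051 with 75th percentile scaling. With array weights, which gave S2 a weight of 0.159 and S3 4.898, Fabp6 was -3.71 and 1 member was called lower, and Apoa4 was 0.16. With the scan as a block and within the first scan Apoa4 was 0.19. Probes called higher numbered 450 against S2 alone, 2000 with array weights, 359 with normexp, 515 with the methods' t-test, 443 within the first scan and 477 to 2397 with each rat left out. Probes called lower numbered 1649 with array weights, 227 with the scan as a block, 178 with the methods' t-test, 342 when all 6 arrays had to be well above background, 187 within the first scan and 192 to 1725 with each rat left out. With 75th percentile scaling 692 probes were called higher and 760 lower, with normexp 359 and 375, and against S2 alone 450 and 478, so that lower calls were the more numerous there. The causes were not tested. Signal over background limits Mttp, the dimmer Mogat2 probe, Apoa1, Apoa4, Apoc1, Abcg5 and Slc15a1 among others, and each strain has 3 rats.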

Other observations

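A lipid gene and an enterocyte gene had signal in a pair of S rats but no value in the deposited table. Apoc3, an apolipoprotein encoded between Apoa1 and Apoa4, was well above background in S1 (log2 signal 7.69 after quantile normalization of the scanner files) and S3 (5.96) and on no other array, where it read 2.12 to 3.64. The sugar transporter Slc2a2 (4.79 in S1 and 5.22 in S3, 2.39 to 3.19 elsewhere) was likewise well above background only there. The lowest signal well above background was 3.62 in S1 and 3.44 in S3 and 4.13 to 5.62 on the other arrays. S1 and S3 are also the rats in which Fabp6 was high.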
